A study of Mus musculus with 12 samples.

Results

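Inguinal white adipose tissue (iWAT) of mice that lacked BAF60a in adipocytes was compared with that of control mice after chronic cold, over all genes that the arrays measured. Members were the 3 arrays labelled AKO (adipocyte-specific Baf60a knockout) and the 3 labelled flox (controls) after chronic cold, 6 of the 12 arrays of the series. The other 6 arrays, 3 AKO and 3 flox, came from mice kept at room temperature (RT, 22 °C). The cold groups were adapted gradually and then held at 10 °C for 7 days, and all mice were on standard chow and, per the labels, 9 months old, whereas the methods of the study give a lower age for cold-acclimated mice. AKO mice carried floxed Baf60a alleles with an Adiponectin-Cre transgene, which deletes the gene in adipocytes, so that vessel, immune and other stromal cells of the tissue kept it. Flox mice were littermates with the floxed alleles and without the deletion. Each array held RNA pooled from 1 or 2 mice. Sex is not given in the labels.

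BAF60a, encoded by Smarcd1, is a subunit of the SWI/SNF complexes, which slide or evict nucleosomes and so open chromatin for transcription factors. iWAT is a subcutaneous depot in which prolonged cold recruits beige adipocytes, fat cells that burn fatty acids and release the energy as heat through the uncoupling protein UCP1. The comparison asked which transcripts of cold-exposed iWAT differ when adipocytes lack BAF60a.

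Values are log2 signals made with RMA, so that a difference of 1 is a 2-fold change. They allow comparison of a gene between arrays but not of different genes with each other. Array medians lay between 3.57 and 3.71, and Pearson's r between arrays over all transcript clusters was 0.981 to 0.985 within the cold groups and 0.981 to 0.984 between AKO and flox arrays in cold. Genes were called where limma's p, adjusted over 22180 genes, was below 0.05, and differences are AKO minus flox unless stated otherwise. Adipocyte markers were bright in all 6 cold arrays, such as Fabp4, the fatty acid binding protein of adipocytes (11.99 to 12.19), and Adipoq, which encodes adiponectin (9.55 to 9.99). Skeletal muscle markers varied widely, with Myh4, a fast myosin heavy chain, at 9.98, 7.62 and 5.09 in flox Cold 1 to 3 and at 2.03, 10.34 and 11.33 in AKO Cold 1 to 3. In whole tissue, more cells of a type cannot be told apart from more RNA per cell.

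Smarcd1 itself had signals of 6.27, 6.51 and 6.89 in the flox arrays and 6.27, 6.26 and 6.37 in the AKO arrays in cold. The groups overlapped, and the difference did not pass (-0.25, SE 0.18, adjusted p = 0.915). A second, dimmer Smarcd1 cluster differed by -0.44. The position of the probes of either cluster, inside or outside the deleted exons, is not given in the sources used here, so the signal does not check the deletion. The study did check it, by qPCR of separated iWAT cells. It reports efficient deletion in mature adipocytes and none in the stromal vascular fraction. The Smarcd1 paralog Smarcd2 (BAF60b) differed by 0.13 (SE 0.14, adjusted p = 0.976), and Smarcd3 was not analysed here. None of 25 measured SWI/SNF subunits was called, with differences from -0.15 to 0.35 and a median of -0.01. Brd9, a bromodomain subunit that the study also examined, differed by 0.17 (adjusted p = 0.929).

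Of 22180 genes, 47 were called in cold (0.212% of the genes tested), 33 higher and 14 lower in AKO. The 33 were 0.149% and the 14 were 0.0631% of the genes tested. Genes with an unadjusted p below 0.05 numbered 1394 (6.28%). Over all genes the median difference was 0.00 and 50.6% of differences were above 0. The called differences were large, with 37 of 47 over 2-fold and 12 over 4-fold, and the smallest was 0.62. In none of the 47 genes did AKO and flox arrays overlap, which a test that picks separated groups favours. Over all genes, 5.7% had all AKO arrays above and 5.55% had all AKO arrays below the flox arrays. In the plot of difference against signal the called genes are spread from dim to bright signal. For 11 of the 47, 8 higher and 3 lower, the dimmer group mean was below the median of all values (3.635), where RMA gives no sign that the transcript was detected, and the size of those differences is uncertain. Among the genes named below these were Slc27a2, Kng2, S100b, Hebp2, Slc9a2, Hadhb, Acot12, Tfr2, Lbhd2 and Gm14057.

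**Figure D1:**
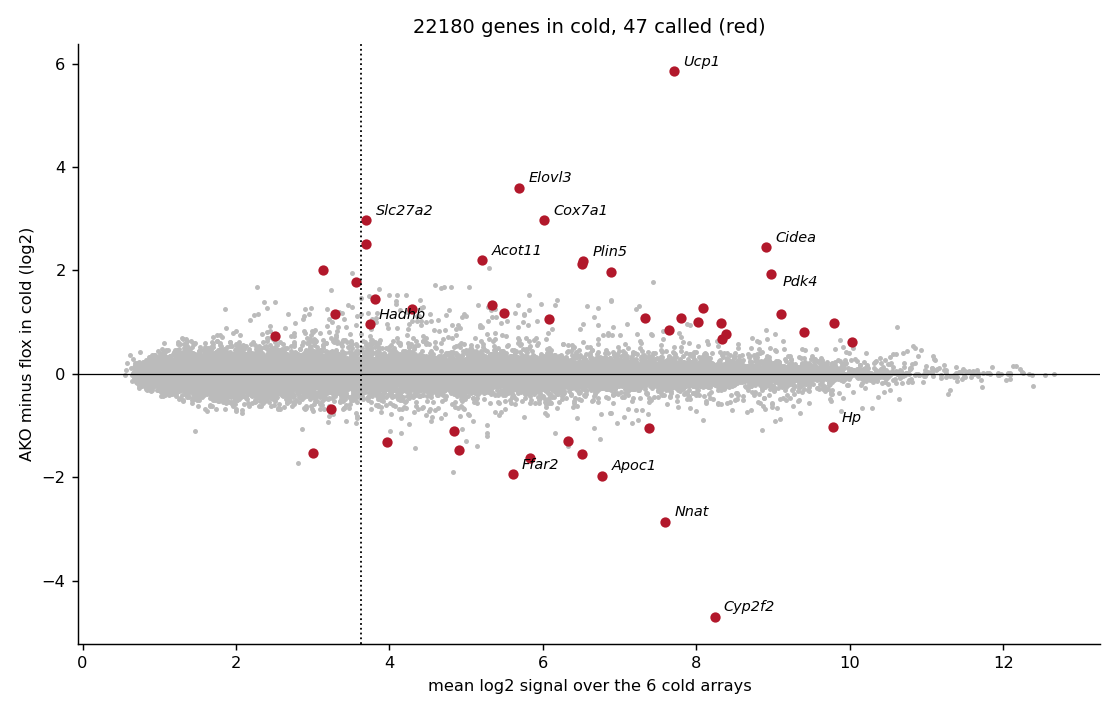
Difference between AKO and flox in cold (log2, vertical axis) against the mean log2 signal over the 6 cold arrays (horizontal axis) for 22180 genes. Red points are the 47 called genes, from Ucp1 at 5.85 to Cyp2f2 at -4.69, and the dotted line is the median of all values (3.635).

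Ucp1, Cox7a1, Slc27a2 and Acot11 stood out among the genes that rose because their genotype difference also depended on temperature. Ucp1 encodes the uncoupling protein of brown and beige adipocytes. It was at 4.94, 5.72 and 3.70 in the flox arrays and at 10.92, 10.41 and 10.59 in the AKO arrays in cold, a 57.8-fold difference. Group means were 4.79 ± 1.02 and 10.64 ± 0.26 (SD, n = 3 arrays), which differed by 5.85 on the log2 scale (SE 0.38, adjusted p = 2.32e-05). At RT it was between 2.61 and 3.10 in all 6 arrays, AKO and flox overlapping (0.10, adjusted p = 0.98). Each AKO array in cold was thus above every other array, and flox arrays also had more signal in cold than at RT (2.06, adjusted p = 0.1), which did not pass.

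Cox7a1 encodes a subunit of respiratory complex IV that is specific to muscle, heart and brown fat. Its signals in cold were 4.40, 4.84 and 4.35 in flox and 7.54, 7.43 and 7.54 in AKO, 7.84-fold higher. Group means were 4.53 ± 0.27 and 7.50 ± 0.06 (SD, n = 3 arrays), 2.97 apart (SE 0.17, adjusted p = 1.9e-05). The 3 flox arrays in cold lay within the range of the RT arrays (4.20 to 4.97). Since Cox7a1 is also a muscle gene, its values are given beside muscle content. AKO Cold 1, the array with the lowest mean of skeletal muscle markers, had 7.54, and flox Cold 1, the flox cold array with the highest, had 4.40. A comparison of single arrays does not test the part of muscle. Its ubiquitous paralog Cox7a2 was at 7.04 to 7.62 in flox and 7.55 to 7.87 in AKO (0.34, adjusted p = 0.798).

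Slc27a2 encodes a very long-chain acyl-CoA synthetase that also takes up fatty acids. It was at 2.50, 2.13 and 2.02 in the flox arrays and 4.94, 5.07 and 5.54 in the AKO arrays in cold (log2 difference 2.97, SE 0.20, adjusted p = 3.11e-05). All RT arrays were between 2.34 and 2.99, so AKO in cold was the single group above this dim level. A second, still dimmer cluster of the gene (mean signal 1.53) differed by 0.05. Its relative Slc27a1, which is bright in fat, pointed the other way in cold and was not called (-0.71, adjusted p = 0.213).

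Acot11 encodes an acyl-CoA thioesterase, which splits acyl-CoA into free fatty acid and CoA and was first described as cold-induced in brown fat. Its signals in cold were 4.06, 4.26 and 4.01 in flox and 6.37, 6.17 and 6.40 in AKO, 4.59-fold higher (log2 difference 2.20, SE 0.15, adjusted p = 2.66e-05). The RT arrays and the flox cold arrays covered one range, 3.77 to 4.38. Acot12, its closest relative, which acts on acetyl-CoA, was at 2.08 to 2.24 in flox and 2.82 to 2.97 in AKO in cold and was called too (0.73, SE 0.12, adjusted p = 0.0313). It was the only other one of 13 acyl-CoA thioesterase genes to pass, and their median was -0.02.

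The test of the difference between temperatures, the genotype by temperature interaction, called these 4 genes and no other (0.018% of the genes tested). The interaction was 5.75 for Ucp1 (SE 0.53) and 2.59 for Cox7a1 (SE 0.24), and 3.03 for Slc27a2 (SE 0.29), each with an adjusted p of 0.00188, and 1.99 for Acot11 (SE 0.21, adjusted p = 0.0035). Each of the 4 passed in all 12 fits that dropped 1 array, with adjusted p up to 0.0214. Elovl3 had an interaction of 3.58 and missed the threshold (adjusted p = 0.0563), as did a predicted gene that was lower in cold.

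The promoters of these 4 genes, and of Cyp2f2, the gene with the largest fall, are shown because they are the sequence next to the starts of the genes on which the comparison turns. They run from 250 bases before to 50 bases after an annotated start (RefSeq, build GRCm38.p6), are written 5′ to 3′ along the gene's strand, and have in capitals each match on either strand to AGGTCA, the hexamer bound by nuclear receptors, to CCAAT and to TGACG, part of the cyclic AMP response element. The windows are chr8:83290098-83290397 on the plus strand for Ucp1, chr7:30183921-30184220 on the plus strand for Cox7a1, chr2:126552774-126553073 on the plus strand for Slc27a2, chr4:106804958-106805257 and chr4:106799782-106800081 on the minus strand for the 2 starts of Acot11, and chr7:27119705-27120004 on the plus strand for Cyp2f2.
Ucp1: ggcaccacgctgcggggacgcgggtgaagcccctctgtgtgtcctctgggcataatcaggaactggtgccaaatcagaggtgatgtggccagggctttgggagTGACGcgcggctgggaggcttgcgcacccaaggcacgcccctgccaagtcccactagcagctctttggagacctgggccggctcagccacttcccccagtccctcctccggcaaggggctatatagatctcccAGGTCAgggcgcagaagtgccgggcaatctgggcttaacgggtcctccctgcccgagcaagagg
Cox7a1: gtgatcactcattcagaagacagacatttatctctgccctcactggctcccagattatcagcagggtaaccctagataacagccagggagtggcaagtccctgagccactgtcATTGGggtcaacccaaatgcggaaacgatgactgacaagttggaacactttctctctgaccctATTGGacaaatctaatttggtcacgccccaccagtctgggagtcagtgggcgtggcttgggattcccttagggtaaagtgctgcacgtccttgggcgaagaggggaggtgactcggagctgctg
Slc27a2: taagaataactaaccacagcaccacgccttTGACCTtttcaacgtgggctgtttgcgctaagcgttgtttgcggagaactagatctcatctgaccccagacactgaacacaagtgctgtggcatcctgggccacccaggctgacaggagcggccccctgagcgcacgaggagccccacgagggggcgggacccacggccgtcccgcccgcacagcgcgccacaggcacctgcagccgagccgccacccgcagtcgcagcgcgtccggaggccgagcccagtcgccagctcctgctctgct
Acot11, upstream start: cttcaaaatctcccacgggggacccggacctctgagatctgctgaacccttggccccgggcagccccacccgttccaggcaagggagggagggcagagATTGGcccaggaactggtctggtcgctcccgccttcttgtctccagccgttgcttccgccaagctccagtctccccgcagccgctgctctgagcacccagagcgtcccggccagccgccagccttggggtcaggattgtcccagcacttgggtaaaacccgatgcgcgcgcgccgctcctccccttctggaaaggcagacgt
Acot11, downstream start: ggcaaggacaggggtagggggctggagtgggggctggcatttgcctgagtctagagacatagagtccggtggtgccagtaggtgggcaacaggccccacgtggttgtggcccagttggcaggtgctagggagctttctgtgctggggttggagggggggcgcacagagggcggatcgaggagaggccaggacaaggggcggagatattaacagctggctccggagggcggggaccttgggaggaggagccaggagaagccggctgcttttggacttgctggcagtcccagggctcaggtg
Cyp2f2: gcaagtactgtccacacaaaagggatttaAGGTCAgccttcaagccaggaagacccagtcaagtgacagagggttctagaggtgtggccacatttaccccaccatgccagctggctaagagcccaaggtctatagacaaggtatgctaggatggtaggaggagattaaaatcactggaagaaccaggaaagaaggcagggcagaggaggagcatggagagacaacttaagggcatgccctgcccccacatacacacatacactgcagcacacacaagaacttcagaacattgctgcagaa

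In these windows Ucp1 had AGGTCA 14 bases before its start and TGACG 147 bases before it, Slc27a2 had AGGTCA 220 bases before its start, and Cyp2f2 had it 221 bases before. Cox7a1 had 2 CCAAT matches, 137 and 74 bases before its start, and the upstream Acot11 window had 1, 152 bases before. None of these motifs was in the windows of all 4 genes. Promoters were at hand for 25 of the 33 genes that rose and 11 of the 14 that fell, and a gene counted as having a motif if any of its windows did. AGGTCA was in 10 of the 25 (40.0%) and 2 of the 11 (18.2%), beside 16.4% of the 16990 tested genes with a promoter. TGACG was in 5 of the 25 (20.0%) and 1 of the 11 (9.09%), beside 26.8%. CCAAT was in 8 of the 25 (32.0%) and 7 of the 11 (63.6%), beside 41.6%. TATAAA was in 1 of the 25 (4.0%) and 0 of the 11, beside 14.3%. The GC box GGGCGG was in 15 of the 25 (60.0%) and 6 of the 11 (54.5%), beside 49.5%, and CCCNNGGG, part of the site of the EBF factors, in 7 of the 25 (28.0%) and 4 of the 11 (36.4%), beside 17.8%. The longer TCAAGGTCA of estrogen-related receptors and the full TGACGTCA were in none of the promoters of either group, beside 0.365% and 2.65%. A direct repeat of AGGNCA, a looser form of AGGTCA, was also in none of them, beside 0.43%. These are counts of letters in short windows, with overlapping matches of nested motifs, and were not tested.

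Other genes of the thermogenic adipocyte rose with the 4. Elovl3, which lengthens fatty acids in brown fat, was at 3.45, 4.78 and 3.43 in the flox arrays and 7.85, 7.55 and 7.07 in the AKO arrays in cold (log2 difference 3.60, SE 0.36, adjusted p = 0.000781), and at 2.06 to 3.04 in all RT arrays. Cidea, which sits on lipid droplets of thermogenic adipocytes, was at 7.66, 8.04 and 7.35 in flox and 10.17, 10.08 and 10.15 in AKO (2.45, SE 0.21, adjusted p = 0.000168). Unlike Elovl3, Cidea was higher in AKO at RT as well, at 7.91 to 8.23 against 6.30 to 7.05 (1.53, adjusted p = 0.0159).

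Plin5 coats lipid droplets and tethers them to mitochondria. It was at 5.44, 5.77 and 5.09 in the flox arrays and at 7.76, 7.67 and 7.41 in the AKO arrays in cold (2.18, SE 0.17, adjusted p = 0.000136), and the difference at RT was nearly the same (1.99, adjusted p = 0.000746). Its relatives Plin1, the main droplet coat of white adipocytes (-0.10), and Plin2 (0.48, adjusted p = 0.526) were not called, nor was Cidec, the white adipocyte relative of Cidea (-0.14, adjusted p = 0.948). Of 18 lipid droplet and lipolysis genes, Plin5 and Cidea were the 2 called, and the median was 0.19.

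Pdk4 encodes a kinase that shuts off pyruvate dehydrogenase and so spares glucose. Its signals were 7.93, 8.30 and 7.79 in flox and 9.73, 9.86 and 10.24 in AKO in cold, 3.83-fold higher (1.94, SE 0.20, adjusted p = 0.00102). Its relatives Pdk1 (0.22) and Pdk2 (0.41, adjusted p = 0.798) were not called. Ppara, the nuclear receptor that drives fatty acid oxidation genes, was at 4.52 to 4.77 in flox and 5.66 to 6.21 in AKO (1.34, SE 0.19, adjusted p = 0.0155), while its relatives Ppard (0.08) and Pparg, the master regulator of adipocytes (-0.21, adjusted p = 0.929), were not called. In isolated iWAT adipocytes, the study's qPCR found the Pparg form PPARγ2 markedly lower in AKO. A single value per gene in whole tissue separates neither that form nor those cells. Letmd1, a mitochondrial protein of brown fat, was at 7.99 to 8.02 in flox and 8.75 to 8.80 in AKO (0.77, SE 0.13, adjusted p = 0.0356).

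In all, 10 of 20 measured genes of the thermogenic adipocyte list rose and none fell, with 18 of 20 above 0 and a median difference of 1.14, beside 0.00 over all genes. The 10 were Ucp1, Elovl3, Cox7a1, Slc27a2, Cidea, Acot11, Plin5, Pdk4, Ppara and Letmd1. The list was drawn up with these results known and in part from genes the study names, so its direction has no independent support from it. Members that did not pass were Otop1, a proton channel of brown fat (1.43, adjusted p = 0.101), Dio2, which converts thyroid hormone to its active form (0.94, adjusted p = 0.436, and 0.38 in a second, dimmer cluster), Cox8b, another oxidase subunit of muscle and brown fat (0.64, adjusted p = 0.677), and Ppargc1a, the coactivator PGC-1alpha, which promotes mitochondrial biogenesis (0.18, adjusted p = 0.99). Zic1, which marks classical brown rather than beige adipocytes, was dim in all 6 cold arrays (2.16 to 2.81) and differed by -0.17. None of 8 measured markers of beige precursors and beige adipocytes passed, with P2rx5, an ion channel (0.55, adjusted p = 0.26), Tbx1 (0.33) and Tmem26 (0.22) as examples.

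**Figure D2:**
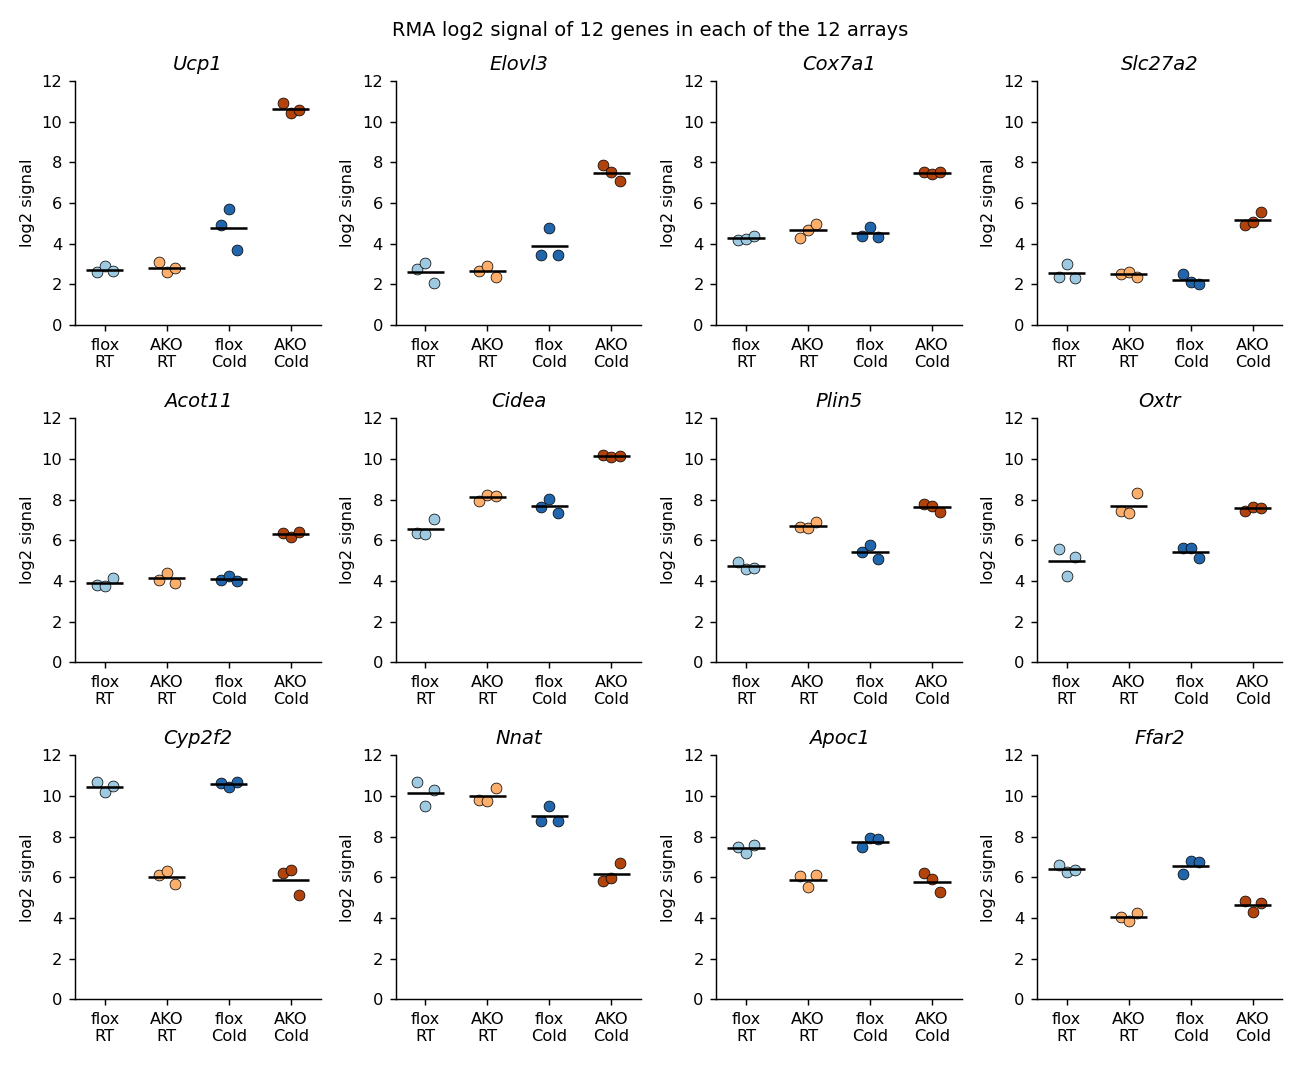
RMA log2 signal (vertical axes) of 12 genes in the 12 arrays, by group of 3 (points are arrays, bars are group means). In Ucp1, Cox7a1, Slc27a2 and Acot11 the AKO cold arrays stand above all others, in Cidea, Plin5 and Oxtr AKO is above flox at both temperatures, and in Cyp2f2, Apoc1 and Ffar2 it is below flox at both.

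Regulators of the thermogenic program were, with 1 exception, not called. Of 33 measured transcription factors and cofactors of adipose thermogenesis, Ppara was the single one called, and the median was -0.02. Prdm16, which determines brown and beige fate, was at 5.81 to 6.02 in flox and 5.40 to 6.11 in AKO (-0.24, adjusted p = 0.948). Ebf2 (-0.11, adjusted p = 0.991) and Zbtb7b (0.18, adjusted p = 0.914), further factors of brown and beige adipocytes, also overlapped between the groups. The nearest to the threshold after Ppara was Esrrg, an estrogen-related receptor that controls mitochondrial genes (0.60, adjusted p = 0.452), and Rxrg, a partner of nuclear receptors, differed by 0.43 (adjusted p = 0.595).

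Genes of fatty acid oxidation in mitochondria were above 0 in 24 of 24 measured members, with a median difference of 0.27, and 3 rose. Slc25a20, the carrier that brings acylcarnitine into the matrix, was at 7.95 to 8.07 in flox and 8.54 to 8.76 in AKO (0.67, SE 0.10, adjusted p = 0.0201). Etfdh, which hands electrons from fatty acid oxidation to the respiratory chain, was at 9.59 to 9.90 and 10.32 to 10.35 (0.62, SE 0.11, adjusted p = 0.0499). Hadhb, a subunit of the trifunctional protein of beta-oxidation, was at 2.98 to 3.53 and 3.98 to 4.47 (0.97, SE 0.17, adjusted p = 0.043), a dim range. The other subunit of that protein, Hadha, was measured with a bright signal, at 10.46 to 10.71 against 11.05 to 11.12, and did not pass (0.54, SE 0.10, adjusted p = 0.0733). Acadvl (0.59), Crat (0.64) and Decr1 (0.52), further enzymes of this pathway, had AKO arrays wholly above the flox arrays and did not pass (adjusted p = 0.16, 0.132 and 0.225). The study names Acaa2, Acadm and Acadl for brown fat at ambient temperature, where it reports lower mRNA in AKO. In cold iWAT here, Acaa2 (0.14), Acadm (0.29) and Acadl (0.38) were not called.

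Of the genes of the respiratory chain, 1 was called. Complex I genes had 32 of 33 members above 0 and a median of 0.18, complex II and III genes 12 of 13 and 0.22, complex IV genes 15 of 15 and 0.33, and the ATP synthase 12 of 16 and 0.10. The called gene was Cox7a1. Next by p were Cox7c (0.45, adjusted p = 0.265) and Cox5a (0.39) of complex IV, Sdhc of complex II (0.37, adjusted p = 0.424), and Ndufab1 (0.33) and Ndufa6 (0.31) of complex I. Mitochondrial ribosome genes, the machinery that translates mitochondrial transcripts, had a median of 0.02, with 21 of 35 above 0 and none called. Chchd10, a protein of the mitochondrial intermembrane space, rose from 8.39 to 8.72 in flox to 9.59 to 9.77 in AKO (1.16, SE 0.14, adjusted p = 0.00377).

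Fuel use beyond the beta-oxidation pathway was represented by single called genes. Pfkl, the liver-type phosphofructokinase, was at 7.02 to 7.43 in flox and 7.88 to 8.22 in AKO (0.85, SE 0.12, adjusted p = 0.0155), and Slc16a1, a carrier of lactate and ketone bodies, at 7.58 to 8.09 and 8.62 to 8.99 (0.98, SE 0.16, adjusted p = 0.0289). They were the 2 called of 20 glycolysis genes, whose median was 0.28 with 16 above 0. Pfkp (0.47), Pkm (0.48) and Ldha (0.24), enzymes of the same pathway, were not called (adjusted p = 0.233, 0.191 and 0.798). For this same contrast, the study's qPCR found Pfkp, Ldha and the Pkm form Pkm2 significantly higher in AKO, among other glycolytic genes. The array differences of Pfkp, Pkm and Ldha pointed the same way, and a missing call does not show that they were unchanged. Of 27 genes of the tricarboxylic acid cycle and pyruvate use, Pdk4 alone rose and the median was 0.22. Pex11a, which drives peroxisome division, was at 7.19 to 7.63 in flox and 8.54 to 9.03 in AKO (1.27, SE 0.15, adjusted p = 0.00352) and was the 1 called of 27 peroxisomal genes (median 0.07). Pank1, which starts coenzyme A synthesis, rose as well (1.06, SE 0.16, adjusted p = 0.0197), and its relative Pank3 differed by -0.11. Neither the creatine cycle (0 of 7) nor calcium cycling (0 of 10), alternative routes of heat production, had a called member. Examples were Gamt (-0.39, adjusted p = 0.816) and Slc6a8 (0.11), which make and take up creatine, and Atp2a2, a calcium pump (0.14, adjusted p = 0.929). By qPCR, the study reports the pump form Serca2a as higher in AKO in chronic cold and Serca2b as unaffected. A single value per gene does not separate these forms.

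These oxidative lists have to be read beside muscle content, since muscle is rich in mitochondria. Of 25 skeletal muscle markers none was called, but 24 were above 0, with a median of 1.20 and with AKO and flox arrays overlapping for all 25. Their mean, relative to the mean of the 12 arrays, was 0.67, -0.38 and -1.30 in flox Cold 1 to 3 and -1.64, 1.11 and 2.74 in AKO Cold 1 to 3. The mean of complex I genes was 0.40, 0.20 and 0.19 in AKO Cold 1 to 3 and 0.09, 0.16 and 0.04 in flox Cold 1 to 3. It was highest in AKO Cold 1, the array with the least muscle signal, while AKO Cold 2 and 3 were close to flox Cold 2. The part of muscle content in the difference of this list was not tested. The mean of the thermogenic list was 1.47, 1.30 and 1.38 in AKO Cold 1 to 3 and -0.18, 0.09 and -0.36 in flox Cold 1 to 3. With the muscle mean as a covariate 47 genes were called, 38 of them among the first 47, and the 10 thermogenic genes kept their direction. Of these, Letmd1 lost its call with nearly the same difference (0.74, adjusted p = 0.0796). Among the 3 called beta-oxidation genes, Hadhb (0.91, adjusted p = 0.0796) and Etfdh (0.62, adjusted p = 0.0976) lost theirs and Slc25a20 did not (0.67, adjusted p = 0.045). Mc2r, described below, lost its call as well (1.08, adjusted p = 0.0796).

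**Figure D3:**
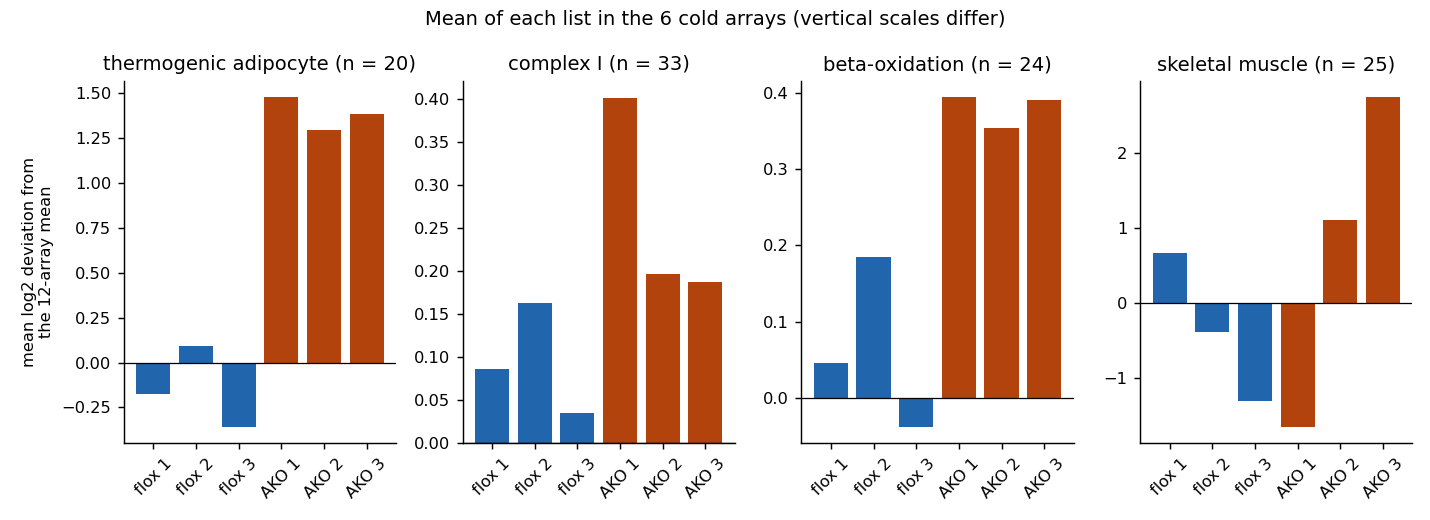
Mean log2 deviation from the 12-array mean (vertical axes, with scales that differ) of 4 gene lists in the 6 cold arrays. Thermogenic, complex I and beta-oxidation means are above every flox array in all 3 AKO arrays, whereas muscle means overlap and are lowest in AKO Cold 1 (-1.64).

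Receptors and secreted factors were among the genes that rose. Oxtr, the oxytocin receptor, was at 5.60, 5.61 and 5.13 in the flox arrays and 7.45, 7.64 and 7.59 in the AKO arrays in cold (2.12, SE 0.31, adjusted p = 0.016). It was higher in AKO at RT too, at 7.35 to 8.30 against 4.24 to 5.56 (2.70, adjusted p = 0.00532). Mc2r, the receptor for adrenocorticotropic hormone, was at 6.49 to 6.97 in flox and 7.73 to 7.94 in AKO (1.07, SE 0.18, adjusted p = 0.043), and its relative Mc5r pointed the other way without passing (-1.40, adjusted p = 0.101). Oxtr and Mc2r were the 2 called of 12 measured receptors and partners for pituitary signals, a list that in part holds genes the study names and is not independent evidence. The study also reports Kiss1r, the kisspeptin receptor, as markedly elevated in cold AKO iWAT. It credits this to its arrays, and the figure it cites shows qPCR. In the array values here Kiss1r was above 0 and did not pass (1.68, adjusted p = 0.192). Several of the receptors that the study describes as largely unaltered were not called here. They included Ghr, for growth hormone (-0.47, adjusted p = 0.275), Tshr, for thyrotropin (-0.56, adjusted p = 0.506), and Avpr1a, for vasopressin (0.08). The study's group also holds Prlr, for which no value is given here.

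Kng2, a kininogen and so a precursor of bradykinin, was at 2.26, 2.94 and 2.13 in flox and 4.91, 5.01 and 4.93 in AKO in cold (2.51, SE 0.30, adjusted p = 0.00339). Its close paralog Kng1 stayed dim, at 1.27 to 1.91 in the 6 arrays (0.06). At RT the AKO arrays of Kng2 were spread from 2.66 to 4.03 and overlapped with flox (0.71, adjusted p = 0.79).

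S100b, a calcium-binding protein of glia that adipocytes also make, was at 2.44, 3.26 and 2.31 in flox and 4.30, 4.38 and 4.66 in AKO (1.78, SE 0.21, adjusted p = 0.00329), and was higher at RT as well (1.38, adjusted p = 0.0346). Of 5 measured markers of Schwann cells and glia, 4 were below 0, among them Cdh19 (-0.57) and Sox10 (-0.51), and none was called. Hebp2, a heme-binding protein, was at 2.85, 3.57 and 2.85 in flox and 4.22, 4.78 and 4.59 in AKO (1.44, SE 0.21, adjusted p = 0.0155). Its paralog Hebp1 differed by -0.14.

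The other named genes that rose were in none of the gene lists. Cxadr, an adhesion protein that serves as a virus receptor, rose by 1.25 (SE 0.18, adjusted p = 0.0155), Npnt, the integrin ligand nephronectin, by 1.19 (SE 0.17, adjusted p = 0.0155), and Gja1, a gap junction protein, by 1.07 (SE 0.19, adjusted p = 0.0499). Slc9a2, a sodium-hydrogen exchanger, was at 2.66 to 2.75 in flox and 3.81 to 3.95 in AKO (1.16, SE 0.10, adjusted p = 0.000182). Reep6, which shapes membranes of the endoplasmic reticulum, rose by 0.98 (SE 0.14, adjusted p = 0.0155), Gpx8, a peroxidase of that compartment, by 0.81 (SE 0.14, adjusted p = 0.0345), and Oplah, the 5-oxoprolinase of glutathione turnover, by 1.00 (SE 0.17, adjusted p = 0.0445). The calls of Gja1, Mc2r, Oplah, Hadhb, Gpx8, Letmd1, Acot12 and Etfdh were the least stable, and held in 1 to 4 of the 12 fits that left out 1 array.

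Among the 14 genes that fell, Cyp2f2 changed most. This cytochrome P450, a monooxygenase known from lung and liver, was at 10.63, 10.42 and 10.71 in the flox arrays and at 6.23, 6.34 and 5.11 in the AKO arrays in cold, 25.8-fold lower. Group means were 10.59 ± 0.15 and 5.89 ± 0.68 (SD, n = 3 arrays), a difference of -4.69 (SE 0.29, adjusted p = 1.9e-05). The RT arrays were at the same levels, 10.17 to 10.67 in flox and 5.65 to 6.29 in AKO (-4.43, adjusted p = 7.21e-05), and no dependence of the genotype difference on temperature was detected (interaction -0.26, adjusted p = 0.986). A second, dimmer cluster of the gene differed by -2.21 in cold and -0.88 at RT. Gsta3, a glutathione transferase, was at 7.19, 7.06 and 6.69 in flox and 5.87, 5.69 and 5.48 in AKO (-1.30, SE 0.21, adjusted p = 0.0302), while its paralog Gsta4 was above 0 and not called (0.64, adjusted p = 0.487). They were the 2 called of 25 detoxification genes, whose median was -0.04. In 7 of the 25 all AKO arrays were below the flox arrays, beside 5.55% of all genes. Among the 7 were Aldh1a7, an aldehyde dehydrogenase (-0.88, adjusted p = 0.175), and Ephx2, an epoxide hydrolase (-0.49, adjusted p = 0.47).

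Nnat, the imprinted gene of neuronatin, a membrane protein of the endoplasmic reticulum, was lower in AKO in cold. It was at 8.78, 9.51 and 8.79 in the flox arrays and 5.81, 5.96 and 6.73 in the AKO arrays in cold (-2.86, SE 0.33, adjusted p = 0.00295), and at 9.51 to 10.70 in all RT arrays, where the groups overlapped (-0.17, adjusted p = 0.963). The interaction of -2.69 did not pass (adjusted p = 0.326), so a dependence on temperature was not shown. A second cluster (mean signal 6.21) differed by -0.41 in cold. It was the 1 called of 18 imprinted genes, and Plagl1, an imprinted zinc finger factor, was the next (-1.14, adjusted p = 0.135).

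Apoc1, an apolipoprotein that inhibits lipoprotein lipase, was at 7.48, 7.91 and 7.88 in flox and 6.19, 5.92 and 5.27 in AKO in cold (-1.97, SE 0.23, adjusted p = 0.00329). Apoe, its neighbour in the genome, differed by -0.03 (adjusted p = 0.997), and Apoc3, another inhibitor of lipoprotein lipase, pointed upward without passing (1.01, adjusted p = 0.0776). Ffar2, an adipocyte receptor for short-chain fatty acids, was at 6.17, 6.82 and 6.75 in flox and 4.83, 4.31 and 4.76 in AKO (-1.94, SE 0.19, adjusted p = 0.000781). At RT the difference was of like size (-2.37, adjusted p = 0.000557). Its relative Ffar3 was dim (1.29 to 2.47) and not called (-0.61, adjusted p = 0.577). Hcar1, the lactate receptor of adipocytes, had all AKO arrays below the flox arrays and did not pass (-0.68, adjusted p = 0.265).

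Tfr2, transferrin receptor 2, was at 3.78, 3.67 and 3.88 in the flox arrays and 2.22, 2.26 and 2.23 in the AKO arrays in cold (-1.54, SE 0.13, adjusted p = 0.000168). Its paralog Tfrc, the receptor by which most cells take up iron, differed by -0.17 (adjusted p = 0.983). Celsr2, a cadherin of the cell surface, was at 7.26, 7.33 and 7.25 in flox and 6.03, 5.49 and 5.68 in AKO (-1.55, SE 0.23, adjusted p = 0.0155). Folh1, a glutamate carboxypeptidase, was at 6.07, 5.60 and 5.24 in flox and 4.30, 3.87 and 4.35 in AKO (-1.46, SE 0.22, adjusted p = 0.0185).

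Cbs, Slc25a10, Hp and Lbhd2 fell as well. Cbs, which makes cystathionine from homocysteine, was at 5.04, 5.52 and 5.64 in flox and 4.23, 4.34 and 4.30 in AKO in cold (-1.11, SE 0.16, adjusted p = 0.0135), and Cth, the next enzyme on the way to cysteine, differed by -0.47 (adjusted p = 0.829). Slc25a10, the mitochondrial dicarboxylate carrier, was at 7.86, 8.05 and 7.82 in flox and 7.17, 6.77 and 6.62 in AKO (-1.05, SE 0.17, adjusted p = 0.0302). It was the 1 called of 27 lipogenesis genes, and Elovl6, a fatty acid elongase of that pathway, pointed upward without passing (0.91, adjusted p = 0.272). Hp, which encodes the plasma protein haptoglobin, a product of fat as well as liver, fell from 10.09 to 10.50 in flox to 9.11 to 9.46 in AKO (-1.04, SE 0.15, adjusted p = 0.0155), and Lbhd2 was lower by a smaller amount (-0.67, SE 0.09, adjusted p = 0.0118).

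Genes that define white adipocytes were not called. Of 20 mature adipocyte markers 12 were below 0, with a median of -0.10. AKO arrays were wholly below the flox arrays in 6 of the 20, beside 5.55% of all genes. Lep, which encodes leptin, was at 10.85, 10.34 and 10.29 in flox and 9.90, 10.06 and 9.55 in AKO (-0.66, adjusted p = 0.555), Adipoq differed by -0.31 (adjusted p = 0.65), and Fabp4 by -0.10. The study names Pck1 and Dgat2, of glyceride synthesis, for brown fat, and Car3, carbonic anhydrase 3, for open chromatin in brown fat and iWAT. In cold iWAT here, Pck1 (0.05), Dgat2 (0.12) and Car3 (-0.24, adjusted p = 0.586, and -0.83 in a second cluster) were not called either. Nor was any marker of progenitors and fibroblasts (0 of 18, median 0.10), collagens (0 of 20, -0.09), endothelium (0 of 12, -0.02), macrophages (0 of 21, 0.11), B cells (0 of 11, 0.10), T and natural killer cells (0 of 13, -0.10) or mammary epithelium (0 of 21, -0.10). Type 2 immune markers had 0 of 11 called, with the eosinophil receptor Ccr3 as the largest difference (1.62, adjusted p = 0.453). The plot of lists shows these beside the oxidative ones.

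**Figure D4:**
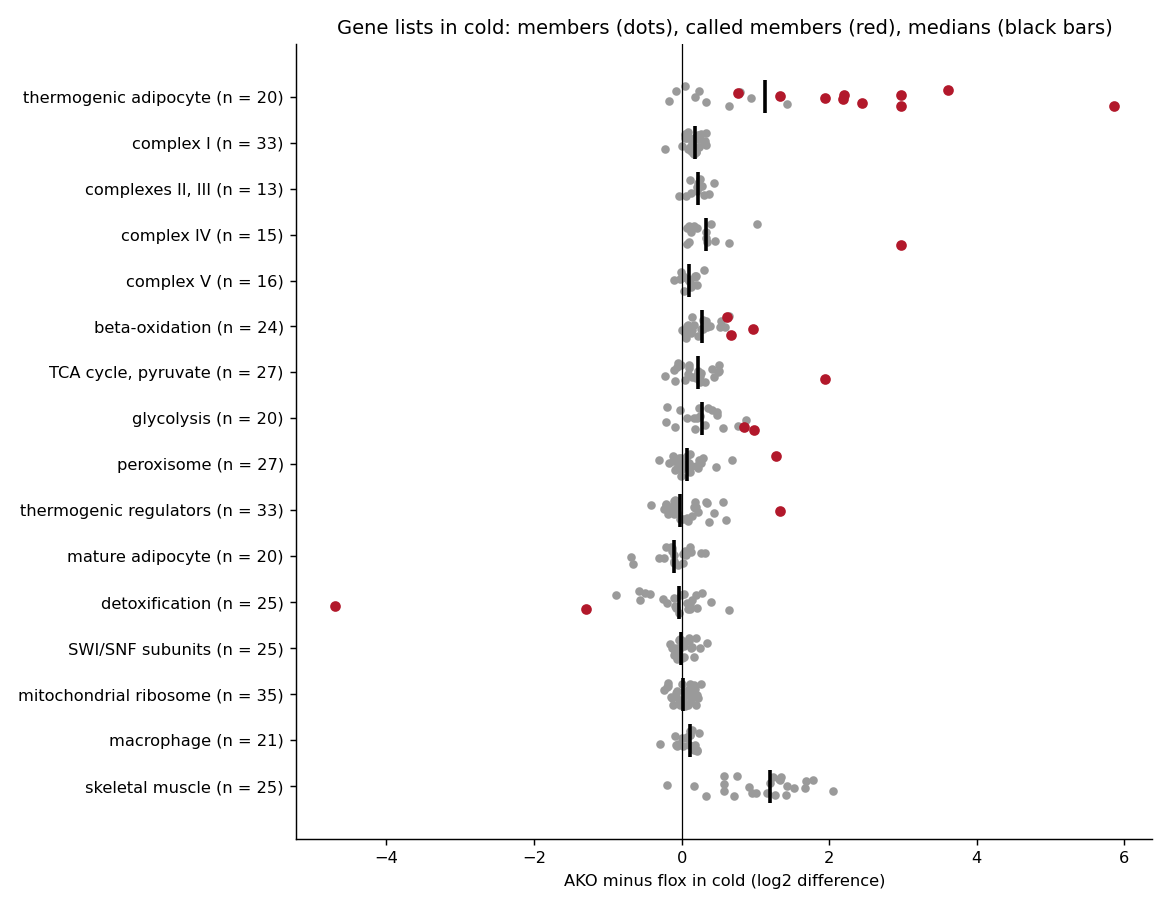
Difference between AKO and flox in cold (log2, horizontal axis) for the members of 16 gene lists, 1 list a row. Dots are genes, red dots are called genes and black bars are medians, which run from -0.10 (mature adipocyte) to 1.20 (skeletal muscle, none called) with the thermogenic adipocyte list at 1.14.

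The RT arrays enter the cold comparison only through the shared estimate of spread, and the called genes were also compared between AKO and flox at RT. At RT 32 genes were called between AKO and flox (0.144% of the genes tested), and 16 of the 47 genes were among them, each in the same direction, 9 of those that rose (0.0992% of all genes were called higher at RT) and 7 of those that fell (0.0451% called lower). The sign was the same at RT for 45 of the 47, with Slc27a2 and Gm14057, a predicted gene named here because of this, as exceptions, and 48.3% of all differences at RT were above 0 and 51.7% below. AKO and flox arrays did not overlap at RT, in the direction seen in cold, for 19 of the 33 genes that rose and 11 of the 14 that fell, beside 5.61% and 5.73% of all genes. The median difference was 1.25 in cold and 0.52 at RT for the genes that rose, and -1.50 and -1.01 for those that fell. The 16 genes called at both temperatures were Cidea, Plin5, Oxtr, S100b, Pex11a, Npnt, Mc2r and 2 without an established name on the higher side, and Cyp2f2, Ffar2, Apoc1, Tfr2, Cbs, Slc25a10 and 1 predicted gene on the lower side. The remaining 27 passed neither at RT nor in the interaction, so their temperature dependence was not settled.

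**Figure D5:**
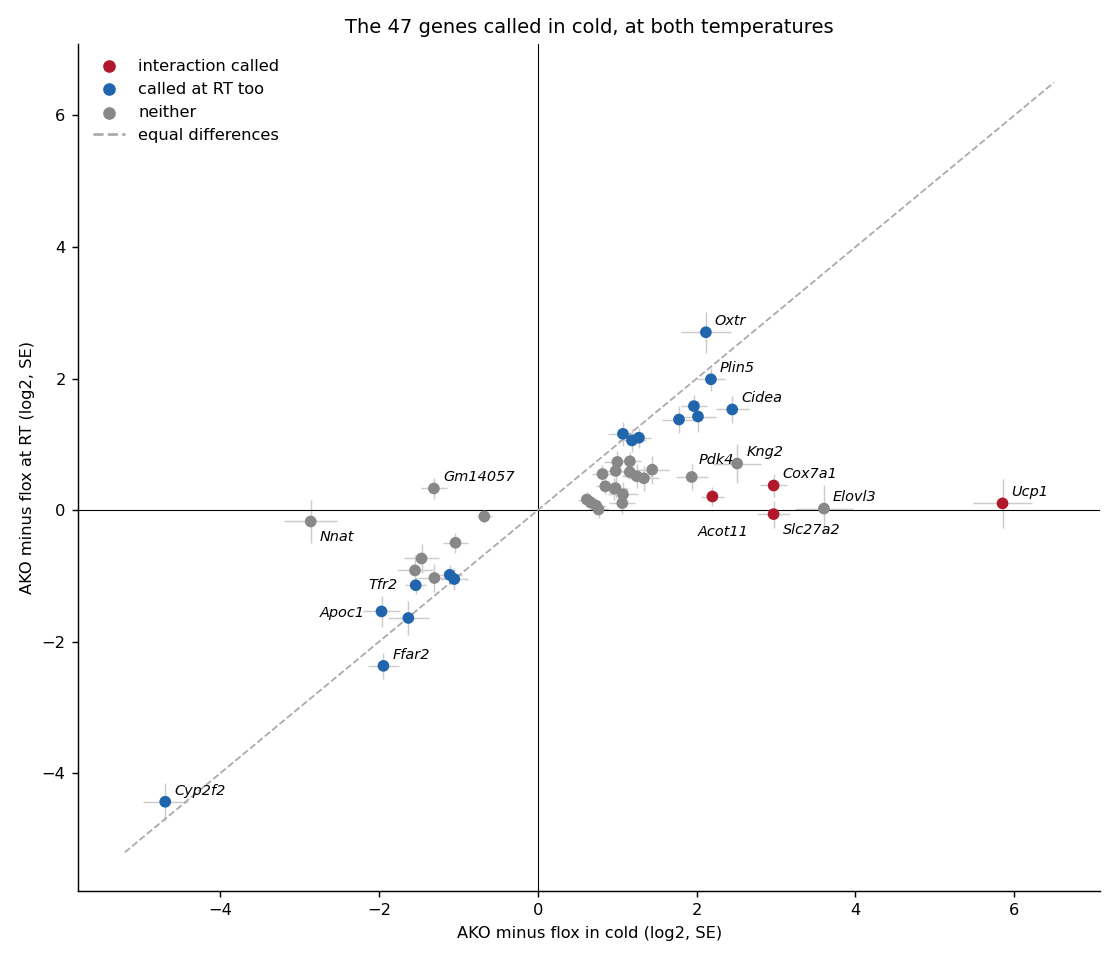
Differences between AKO and flox at RT (vertical axis) against those in cold (horizontal axis) for the 47 genes called in cold, log2 with SE as thin lines. Red points are the 4 genes with a called interaction, near 0 at RT, blue points are the 16 genes called at both temperatures, and the dashed line marks equal differences.

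Set against RT within each genotype, 18 of the 33 genes that rose were called higher in cold than at RT in AKO (0.379% of all genes, out of 0.464% called in either direction), and 1 of the 47, Chchd10, was called in flox (1.30, adjusted p = 0.023), where 2 genes passed in all (0.00902%). All AKO cold arrays were above all AKO RT arrays for 29 of the 33, beside 8.9% of all genes, and the same held among flox arrays for 15, beside 7.02%. These contrasts share the cold arrays with the main comparison, so they are given as values. Among the genes that rose, the largest cold responses in AKO were those of Ucp1 (7.81, adjusted p = 2.6e-06), Elovl3 (4.85) and Cox7a1 (2.85), beside 2.06, 1.27 and 0.25 in flox. Of the 14 genes that fell, 3 were called lower in cold than at RT in AKO (0.0857% of all genes), among them Nnat (-3.83, adjusted p = 0.00025) and Hp (-1.43, adjusted p = 0.00178).

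Calls near the threshold depended on single arrays. Of the 47 calls, 21 held in each of the 12 fits that left out 1 array, 15 of genes that rose and 6 of genes that fell, and no difference changed sign in any of them. Leaving out 1 of the 6 cold arrays gave 23 to 31 calls, with 30, 27 and 23 without AKO Cold 1, 2 and 3 and 28, 31 and 29 without flox Cold 1, 2 and 3. Leaving out 1 RT array gave 37 to 53. The 21 included Slc9a2, Chchd10, Pex11a, S100b, Pdk4, Plin5, Acot11, Cidea, Kng2, Slc27a2, Cox7a1, Elovl3 and Ucp1 on the higher side, and Tfr2, Ffar2, Apoc1, Nnat and Cyp2f2 on the lower side.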

How the data were processed

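RNA of inguinal fat was hybridised to Affymetrix arrays by the authors, 400 ng of total RNA per array, 12 arrays in 4 groups of 3. The deposited values are log2 expression per transcript cluster. The submitters' processing notes name RMA and R 3.1.1. Whether all arrays were normalised together is not given in the sources used here. RMA shrinks differences at low signal and gives no detection calls. Of 41345 clusters, 23521 had 1 gene symbol in the platform annotation, 1820 several and 16004 none. The brightest cluster stood for each of 22180 genes, and 0 value columns were left out.

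limma 3.58.1 in R 4.3.3 was fitted to the 4 groups, so that all 12 arrays share the estimate of spread, followed by eBayes. p-values are two-sided, adjusted over all genes by Benjamini-Hochberg, and called below 0.05. ± is the SD over arrays and SE is that of limma. Arrays held 1 or 2 mice, so the spread between them is not that between single animals, and 3 arrays a group limit the precision. Genes named are Smarcd1 and its paralogs, all called genes except predicted ones, clone names and the like, called genes of the interaction, up to 4 members of each list with the smallest p, the closest paralogs of called genes, and genes the study names. The members and gene lists were chosen with earlier results of these data known. Promoters came from RefSeq (GRCm38.p6). Fits were tested on simulated data, where the cold comparison recovered 36% of log2 differences of 0.5, 76% of 1 and 96% of 2. A gene that was not called may therefore still differ. Alternatives were other normalisations, filters, covariates, models, thresholds, and each array left out.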

Additional observations from a re-analysis of the deposited data

Results flagged for a closer look

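For 4 genes the difference between AKO and flox in cold differed from that at RT by the test of the interaction itself. The interaction, on the log2 scale, was 5.75 for Ucp1, 3.03 for Slc27a2, 2.59 for Cox7a1 and 1.99 for Acot11, in each case with AKO minus flox larger in cold.

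Clusters that could not be tied to a single gene were outside the comparison of genes. When all 41345 clusters were fitted together, 20 of the 16004 clusters without a gene symbol were called in cold (0.125%), 8 higher and 12 lower in AKO, as were 7 of the 1820 with several symbols (0.385%), 4 higher and 3 lower. Among clusters with 1 symbol the share was 0.153%. What the clusters without a symbol measure was not tested.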

How the results depend on the processing

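No called difference changed sign under any alternative, but counts moved. Against 47 genes in cold, the 6 cold arrays fitted alone called 26, of which 24 were shared. An adjusted p below 0.1 gave 82. A two-sided Student test passed 1292 genes unadjusted and 1 after Benjamini-Hochberg adjustment. The study used that test for measurements such as qPCR, and its methods state no test for the arrays. An alternative chosen after seeing the data left out AKO Cold 2 and 3, the cold arrays with the most muscle signal. It kept AKO RT 2, whose mean of muscle markers was 2.23, beside 1.11 in AKO Cold 2. Muscle-rich arrays were thus not all removed. This alternative gave 30 calls, 15 of them shared, but left 1 AKO cold array, assumed to vary like the others. At RT, with 32 calls, it gave 15 and the muscle covariate 20. Leaving out 1 array in turn gave 23 to 53 calls in cold, 12 to 52 at RT and 4 to 13 for the interaction, and Smarcd1 differed by -0.40 to -0.09. No pairing of arrays by replicate number was detected. Deviations of same-numbered AKO and flox arrays correlated at -0.12, -0.05 and 0.05 in cold, and at 0.14, 0.10 and -0.09 at RT. Arrays with different numbers correlated at -0.22 to 0.16. With so few arrays a group, these values cannot exclude a pairing. With the replicate block 40 genes were called in cold, 36 of them shared, 22 at RT and 6 in the interaction, and Smarcd1 differed by -0.25. Dim signal limits the size of differences for 11 of the 47 genes.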

Other observations

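Several gene groups outside the comparisons above had no called member in cold. The 19 measured interferon response genes had a median difference of 0.00, the 26 cell cycle genes 0.04, the 20 genes of branched-chain amino acid breakdown -0.05, the 16 of cholesterol synthesis 0.07, the 15 of glycogen metabolism 0.21, and the 15 of the circadian clock 0.05. Of 22 genes of the unfolded protein response, 18 were below 0, with a median of -0.05.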
